A study of Mus musculus with 9 samples.

Results

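The 9 genes described here encode the surface receptors by which plasma cells and myeloma cells reach the bone marrow and hold on there. They are *Cxcr4*, *Itga4*, *Itgb1*, *Itgb7*, *Itgal*, *Itgb2*, *Cd44*, *Icam1* and *Selplg*. They were chosen by name and role from the 53077 genes listed for each sample, by a rule that uses no measured value, though with earlier results of these data known. RNA was sequenced from 9 samples of 5TGM1 cells, a mouse multiple myeloma line, with 3 replicates in each of 3 populations. All 3 populations carried a blasticidin-selected lentiviral Cas9. The control population received a gRNA against *Rosa26*, a locus commonly used as a neutral target. The second population received a gRNA against *Slc2a1*, which encodes the glucose transporter GLUT1, and is called *Slc2a1* gRNA-transduced. The third received 5 gRNAs, directed at *Slc2a1* and at its relatives *Slc2a3*, *Slc2a5*, *Slc2a6* and *Slc2a8*, and is called *Slc2a1/3/5/6/8* gRNA-transduced. In that population the 4 transporters other than *Slc2a1* were targeted first, reporter-positive cells were sorted and expanded, and the *Slc2a1* gRNA was added afterwards, so it also differs from the others in its handling. The gRNA-transduced cultures are mixed populations rather than clones, and cells that escaped editing remain in them. What separates the populations beyond the gRNAs, such as the sort and the expansion, cannot be told apart from the deletions.

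CXCR4 is the receptor for CXCL12, the chemokine made by marrow stromal cells that draws plasma cells into the marrow and keeps them there. The integrin chain alpha 4, from *Itga4*, pairs with beta 1 (*Itgb1*) as VLA-4, which binds VCAM-1 and fibronectin, or with beta 7 (*Itgb7*) as a receptor for MAdCAM-1. The chains encoded by *Itgal* and *Itgb2* form LFA-1, whose ligand ICAM-1 (*Icam1*) is itself found on lymphoid cells. CD44 binds hyaluronan, and PSGL-1, the product of *Selplg*, carries the sugars that selectins recognize on vessel walls.

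All 9 receptor genes were detected in every sample and passed the filter on low counts. Together they made up from 0.219 to 0.328% of each library by estimated counts. The samples held between 21838805 and 30537105 estimated counts in all. Of 9 plasma cell markers, 8 had a control TPM of at least 1, with a summed TPM (a level corrected for gene length and library size) of 915 to 1300 in control, 858 to 1090 in *Slc2a1* gRNA- and 1030 to 1290 in *Slc2a1/3/5/6/8* gRNA-transduced samples. The summed TPM of 7 B cell markers reached at most 2.06, of 7 T cell markers 1.76, of 7 myeloid markers 1.44, of 6 stromal markers 1.45 and of 5 endothelial markers 0.29 in any sample. *Xbp1*, a transcription factor of secretory cells, gave the largest part of the plasma cell sum (469 TPM in control). *Tnfrsf17*, which encodes the survival receptor BCMA, had only 0.0725 to 1.36 TPM, and *Cd38*, a surface marker of plasma cells, had at most 2 counts in any sample. Of the 9 markers *Jchain*, the joining chain of secreted antibody, was called lower with the *Slc2a1* gRNA (log2 fold change -1.33, edgeR adjusted p = 0.00529), while *Jchain* (0.59, edgeR adjusted p = 0.0348) and *Tnfrsf13b*, the receptor TACI (0.42, edgeR adjusted p = 0.018), were called higher with the 5 gRNAs, all named outside the rule for named genes. Their part in the results below was not tested. As to the targeted genes, *Slc2a1* was not called in *Slc2a1* gRNA-transduced cells (log2 fold change -0.21, SE 0.18, edgeR quasi-likelihood test with Benjamini-Hochberg adjustment, adjusted p = 0.544), and the value was 0.04 without control replicate 1, whose TPM of 59.5 was the highest of the 9. With the 5 gRNAs *Slc2a8* fell by 1.22 on the log2 scale (edgeR adjusted p = 0.000309), *Slc2a6* by 0.67 (edgeR adjusted p = 0.0366) and *Slc2a1* by 0.66 (edgeR adjusted p = 0.029), and *Slc2a3* was not called. *Slc2a5* was called higher with the 5 gRNAs (2.65, edgeR adjusted p = 0.00478), but it had only 6, 6 and 10 estimated counts in control, 7, 9 and 14 in *Slc2a1* gRNA- and 29, 36 and 51 in *Slc2a1/3/5/6/8* gRNA-transduced replicates. With limma on log2(TPM + 1) the calls of *Slc2a5* (0.69, limma adjusted p = 0.0816), *Slc2a1* (-0.60, limma adjusted p = 0.232) and *Slc2a6* (-0.64, limma adjusted p = 0.0563) were lost. The *Slc2a1* call was lost without control replicate 1 (log2 fold change -0.41, edgeR adjusted p = 0.222). It was lost as well without control replicate 3 (-0.68, edgeR adjusted p = 0.0934), without *Slc2a1/3/5/6/8* gRNA replicate 1 (-0.56, edgeR adjusted p = 0.0767) or without its replicate 3 (-0.51, edgeR adjusted p = 0.161). That of *Slc2a6* was lost on leaving out any one control or any one *Slc2a1/3/5/6/8* gRNA sample, with edgeR adjusted p-values from 0.0635 to 0.156. A gRNA edits the gene and need not lower its transcript, so the transcript level is a partial check of the labels.

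*Cxcr4* and *Itgb7* rose with the 5 gRNAs, and of the 9 receptor genes *Icam1* differed most between the gRNA-transduced populations. Promoter sequences are shown for these genes. They are RefSeq sequences of GRCm38.p6, from 250 bases before to 50 bases after the start of the gene, and 6 of the 9 receptor genes had an entry. They are written 5′ to 3′ on the strand of the gene. Capitals mark matches on either strand. The motifs searched were the GC box, whose letters are GGGCGG, and the TATA box, whose letters are TATAAA. The E-box, searched as CACGTG, and the core bound by the lymphoid and myeloid factor PU.1, searched as GAGGAA, were included. The last was a pattern like the sites bound by NF-kB, searched as GGAANNTCC. These motifs were chosen with the sequences in view.
*Cxcr4*, chr1:128592250-128592549, minus strand: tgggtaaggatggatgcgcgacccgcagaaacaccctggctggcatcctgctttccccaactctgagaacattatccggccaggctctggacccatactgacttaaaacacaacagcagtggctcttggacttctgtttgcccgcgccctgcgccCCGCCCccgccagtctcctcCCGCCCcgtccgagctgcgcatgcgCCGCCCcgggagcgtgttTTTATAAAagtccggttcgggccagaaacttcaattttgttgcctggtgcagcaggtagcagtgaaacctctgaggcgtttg
*Itgb7*, chr15:102231886-102232185, minus strand: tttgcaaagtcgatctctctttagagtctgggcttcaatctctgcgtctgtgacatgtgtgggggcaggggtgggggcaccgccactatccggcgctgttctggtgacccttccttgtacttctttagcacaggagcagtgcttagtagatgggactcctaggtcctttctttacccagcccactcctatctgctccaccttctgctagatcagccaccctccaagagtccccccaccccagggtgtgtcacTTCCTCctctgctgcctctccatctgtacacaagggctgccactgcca
*Icam1*, chr9:21015690-21015989, plus strand: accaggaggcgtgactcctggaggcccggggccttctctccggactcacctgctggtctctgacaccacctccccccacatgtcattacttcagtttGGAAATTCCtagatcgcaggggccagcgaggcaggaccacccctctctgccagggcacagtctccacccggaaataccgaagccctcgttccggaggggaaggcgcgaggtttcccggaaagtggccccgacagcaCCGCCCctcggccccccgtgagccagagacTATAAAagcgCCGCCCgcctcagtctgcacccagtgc

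The *Cxcr4* promoter held 3 GC boxes, at 95, 75 and 50 bases before the start as counted to their leading base, and 2 overlapping TATA boxes at 32 and 30 bases before it. The *Itgb7* promoter held neither, and its 1 match, to GAGGAA on the other strand, lay just past the start. The *Icam1* promoter held the only NF-kB-like match, at 153 bases before the start, with 2 GC boxes and a TATA box nearer to or past the start. A GC box was found in 5 of the 6 receptor promoters and in 35.7% of all 32851 promoters of the same length. TATAAA was found in 2 of 6 and in 13.6% of all, GAGGAA in 3 of 6 and in 28.3%, and CACGTG in 0 of 6 and in 7.15%. GGAANNTCC was in 1 of 6 and in 4.26% of all promoters. The shares are over all promoters, whether or not the gene was expressed here, and a share among expressed genes was not computed. These matches describe letters in the sequence and not binding.

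In control gRNA-transduced cells the order of the levels was led by *Selplg*, with a TPM of 169 ± 29.2 (SD, n = 3). It was followed by *Itga4* at 134 ± 44 (SD, n = 3) and *Cd44* at 124 ± 12.5 (SD, n = 3). The ranges of neighbours among these leading genes overlapped. *Itgb1* came next at 83.4 ± 15.8 (SD, n = 3), each sample of it below each sample of *Cd44*. *Cxcr4* stood at 71.3 ± 9.26, *Itgal* at 56.8 ± 10.8, *Itgb2* at 39.9 ± 11.2 and *Icam1* at 39.4 ± 6.37 TPM (SD, n = 3 each), and from *Itgb1* to *Icam1* each gene overlapped the next. *Itgb7* was far below all others at 5.37 ± 4.14 TPM (SD, n = 3). The other 8 receptor genes were above at least 84.2% of the tested genes by control TPM, whereas *Itgb7* was above 40.4%. By mean TPM *Selplg* was also highest and *Itgb7* lowest in both gRNA-transduced populations. In single samples, *Cd44* was above *Selplg* in *Slc2a1* gRNA replicate 1 and *Itga4* was above it in *Slc2a1/3/5/6/8* gRNA replicate 3.

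**Figure D1:**
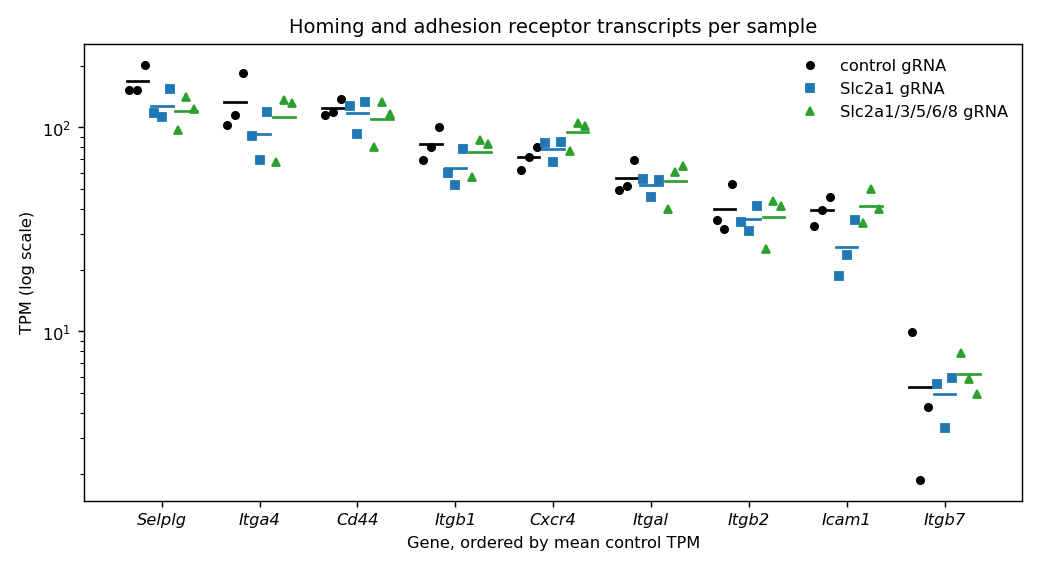
TPM of the 9 receptor genes on a log axis, with 1 point per sample in each population and a horizontal line at the mean of 3 samples. The genes run from *Selplg* (control mean 169) to *Itgb7* (control mean 5.37), and the populations overlap for nearly all of them on this scale.

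The level of the whole group of receptors differed between replicates as much as between populations. The summed TPM of the 9 genes was 628.1, 662.8 and 877.9 in control replicates 1 to 3, 595.7, 497.8 and 706.6 in *Slc2a1* gRNA-transduced replicates, and 486.2, 762.6 and 706.2 in *Slc2a1/3/5/6/8* gRNA-transduced replicates. By TPM, control replicate 3 was the highest control sample for 8 of the 9 genes, *Slc2a1* gRNA replicate 2 the lowest of its population for 8, and *Slc2a1/3/5/6/8* gRNA replicate 1 the lowest of its population for 8. By CPM (counts scaled to library size by edgeR's TMM factors), control replicate 1 was the lowest control for 7 genes and replicate 3 the highest for 6, and *Slc2a1* gRNA replicate 2 was the lowest of its population for 6. Over all tested genes these shares were 32.7, 35.5 and 33.2%. By CPM, *Slc2a1/3/5/6/8* gRNA replicates 1 and 3 were each the lowest for 4 genes (37.5 and 33.7% of tested genes), so replicate 1 did not stand apart on that scale. These samples were singled out after the values were seen, and the counts are descriptions. Levels are compared between genes by TPM. Between populations, receptor genes are given by CPM and other genes by TPM or CPM as stated, and every edgeR test rests on counts.

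Against control, 3 of the 9 receptor genes changed with the 5 gRNAs, and 0 with the *Slc2a1* gRNA alone. *Cxcr4* rose 1.36-fold and *Itgb7* 1.78-fold, while *Selplg* fell to 0.744 of control. These were the calls of edgeR's quasi-likelihood test at an adjusted p under 0.05, which called 15.9% of the 13834 tested genes in that comparison (8.49% higher and 7.44% lower). For the *Slc2a1* gRNA the same test called 4.64% of genes (2.25% higher and 2.39% lower), and 3 receptor genes (*Cxcr4*, *Itgb7* and *Icam1*) had an unadjusted p under 0.05, as did 22% of all tested genes. The 3 genes called for the 5 gRNAs were also the 3 with an unadjusted p under 0.05, against 31.4% of all. DESeq2 called the same 3 genes for the 5 gRNAs and 1 receptor gene, *Icam1*, for the *Slc2a1* gRNA, while limma on log2(TPM + 1) called 0 in both comparisons. The median log2 fold change of the 9 was 0.06 with the *Slc2a1* gRNA and -0.02 with the 5 gRNAs, beside -0.001 and 0.007 over all tested genes. In bulk RNA, fewer cells that express a gene and less RNA of it per cell cannot be told apart.

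**Figure D2:**
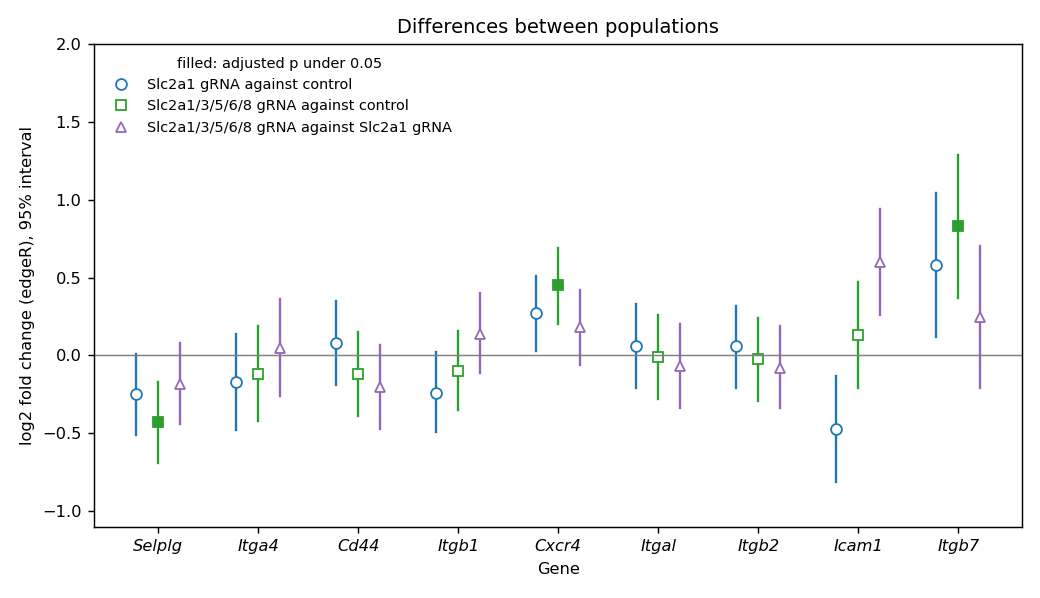
Log2 fold changes from edgeR with 95% intervals for the 9 receptor genes in 3 comparisons, filled where the adjusted p was under 0.05. The filled points are *Selplg* (-0.43), *Cxcr4* (0.45) and *Itgb7* (0.83), all with the 5 gRNAs against control.

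*Cxcr4*, the chemokine receptor, had CPM values of 98.9, 120 and 108 in control replicates 1 to 3, 139, 125 and 130 in *Slc2a1* gRNA-transduced replicates, and 154, 153 and 139 in *Slc2a1/3/5/6/8* gRNA-transduced replicates. Every gRNA-transduced sample was above every control sample, and the 2 gRNA-transduced populations met at 139 without overlapping. The log2 fold change was, for the 5 gRNAs, 0.45 (SE 0.11, 95% interval 0.20 to 0.69, edgeR adjusted p = 0.0192). For the *Slc2a1* gRNA it was 0.27 (SE 0.11, interval 0.03 to 0.51, edgeR adjusted p = 0.18). Between the 2 gRNA-transduced populations it was 0.18 (interval -0.06 to 0.42, edgeR adjusted p = 0.416), so the difference in size was not called. By TPM the control samples had 61.8, 71.8 and 80.3, the *Slc2a1* gRNA samples 83.7, 67.7 and 85.1 and the *Slc2a1/3/5/6/8* gRNA samples 76.6, 105 and 102. On that scale each gRNA-transduced population overlapped the controls. The call with the 5 gRNAs was lost without control replicate 1 (0.35, edgeR adjusted p = 0.179) and without control replicate 3 (0.48, edgeR adjusted p = 0.0871). It was also lost with limma on log2(TPM + 1) (0.40, limma adjusted p = 0.209).

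**Figure D3:**
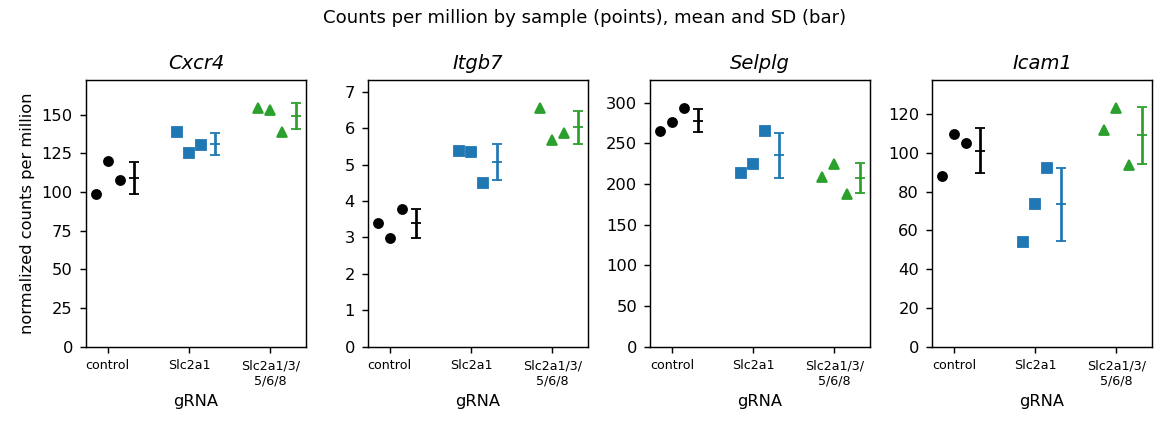
CPM of *Cxcr4*, *Itgb7*, *Selplg* and *Icam1*, with 1 point per sample and a bar for the mean and SD of 3 samples, on axes from 0. Every *Slc2a1/3/5/6/8* gRNA sample is above every control for *Cxcr4* (139 to 154 against 98.9 to 120) and *Itgb7* (5.67 to 6.55 against 2.99 to 3.79) and below every control for *Selplg* (188 to 224 against 265 to 293).

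*Itgb7*, the beta chain that takes alpha 4 to mucosal sites, was the scarcest of the receptors. Its estimated counts were 97, 82 and 124 in control, 112, 117 and 110 in *Slc2a1* gRNA- and 150, 128 and 166 in *Slc2a1/3/5/6/8* gRNA-transduced replicates. As CPM these were 3.39, 2.99 and 3.79, then 5.39, 5.34 and 4.51, then 6.55, 5.67 and 5.88. The 3 populations did not overlap on the CPM scale. The log2 fold change was 0.83 with the 5 gRNAs (SE 0.21, interval 0.37 to 1.29, edgeR adjusted p = 0.0206) and 0.58 with the *Slc2a1* gRNA (SE 0.21, interval 0.12 to 1.04, edgeR adjusted p = 0.133). Between the gRNA-transduced populations it was 0.25 (interval -0.21 to 0.70, edgeR adjusted p = 0.565).

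The TPM of *Itgb7* did not follow its counts. It was 9.94, 1.87 and 4.28 in control, 5.5, 3.36 and 5.9 in *Slc2a1* gRNA- and 7.87, 5.85 and 4.92 in *Slc2a1/3/5/6/8* gRNA-transduced replicates, so that control samples were both the highest and the lowest of the 9. TPM divides counts by an effective length, which was deposited separately and is not shown here. The deposited length, an average over the transcripts that Salmon assigned reads to, ran opposite to the TPM. It was 569 bases in control replicate 1, where the TPM was highest, and 1562 bases in control replicate 2, where it was lowest. In GENCODE M21 *Itgb7* has 5 transcripts, of which the longest has 2683 bases and the other 4 have 358 to 455 bases. The rise of *Itgb7* is thus a rise in counts. With limma on log2(TPM + 1) the log2 fold change was 0.08 with the *Slc2a1* gRNA (limma adjusted p = 0.927) and 0.37 with the 5 gRNAs (limma adjusted p = 0.527). The edgeR call was lost without control replicate 1, 2 or 3 (0.78, 0.75 and 0.98, edgeR adjusted p = 0.118, 0.0945 and 0.0501) and without *Slc2a1/3/5/6/8* gRNA replicate 3 (0.86, edgeR adjusted p = 0.0681).

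*Itga4*, the alpha 4 chain, gave CPM values of 854, 1000 and 1260 in control, 901, 775 and 1070 in *Slc2a1* gRNA- and 764, 1080 and 1010 in *Slc2a1/3/5/6/8* gRNA-transduced replicates. The populations overlapped, and the spread within each was wide. The log2 fold change was -0.17 (interval -0.48 to 0.14, edgeR adjusted p = 0.529) with the *Slc2a1* gRNA and -0.12 (interval -0.42 to 0.19, edgeR adjusted p = 0.618) with the 5 gRNAs. *Itgb1*, the beta 1 chain, had 290, 351 and 362 CPM in control, 270, 256 and 323 in *Slc2a1* gRNA- and 295, 334 and 306 in *Slc2a1/3/5/6/8* gRNA-transduced replicates. All groups overlapped, although each *Slc2a1* gRNA replicate was below the control of its number (log2 fold change -0.24, interval -0.49 to 0.02, edgeR adjusted p = 0.262). It was -0.10 for the 5 gRNAs (interval -0.35 to 0.16, edgeR adjusted p = 0.618).

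Since alpha 4 is shared between the beta chains, their proportions were set side by side. By TPM, *Itga4* was 1.48 ± 0.246 times the sum of *Itgb1* and *Itgb7* in control, 1.35 ± 0.0964 in *Slc2a1* gRNA- and 1.35 ± 0.26 in *Slc2a1/3/5/6/8* gRNA-transduced cells (SD, n = 3 each), with overlapping ranges. The estimated counts of *Itgb7* were 0.852 to 1.17% of those of *Itgb1* in control, 1.39 to 2.08% in *Slc2a1* gRNA- and 1.7 to 2.22% in *Slc2a1/3/5/6/8* gRNA-transduced samples. Every control was thus below every gRNA-transduced sample by counts. By TPM, *Itgb7* was 6.96 ± 6.43, 7.71 ± 1.39 and 8.84 ± 4.32% of *Itgb1* (SD, n = 3 each), and the groups overlapped. On both scales *Itgb1* was by far the more abundant partner.

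The deposited length of *Itga4* separated the populations where its counts did not. It was 7289, 7276 and 6927 bases in control, 7953, 8387 and 7903 in *Slc2a1* gRNA- and 7889, 7480 and 7594 in *Slc2a1/3/5/6/8* gRNA-transduced replicates. All 6 gRNA-transduced samples were above all 3 controls, which was so for 2.8% of the tested genes, or 3.84% with those below all controls added. In GENCODE M21 *Itga4* has 1 coding transcript of 9767 bases and 4 processed transcripts of 1508 to 2936 bases, and the deposited lengths lie between those of the coding and processed forms. In that annotation 8.04% of the exonic bases of *Itga4* overlap *Cerkl* on the opposite strand, and the assignment of reads there was not tested. *Itga4* was the only 1 of the 9 receptor genes whose lengths set all 6 gRNA-transduced samples apart from the controls. The length of *Itgb7* spanned 569 to 1562 bases in control alone, and that of *Icam1* stayed between 2530 and 2533 bases in all 9 samples.

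**Figure D4:**
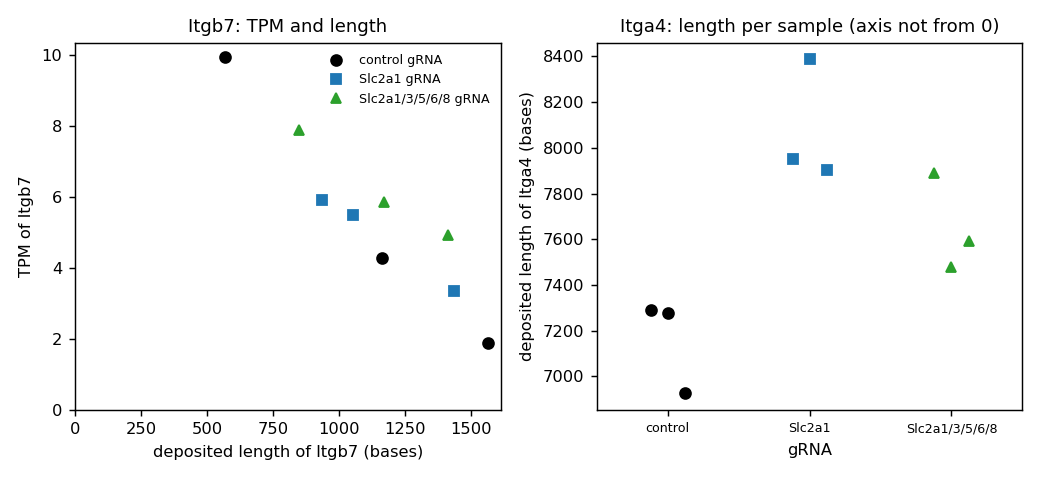
Left, TPM of *Itgb7* against its deposited length in bases for the 9 samples, where the shortest length (569) goes with the highest TPM (9.94) and the longest (1562) with the lowest (1.87). Right, deposited length of *Itga4* per sample on an axis that does not start at 0, where the controls (6927 to 7289) lie below the 6 gRNA-transduced samples (7480 to 8387).

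The LFA-1 chains moved little. *Itgal* (alpha L) had 280, 311 and 347 CPM in control, 356, 296 and 319 in *Slc2a1* gRNA- and 272, 326 and 331 in *Slc2a1/3/5/6/8* gRNA-transduced replicates. *Itgb2* (beta 2) had 106, 103 and 121, then 111, 107 and 127, then 95.6, 125 and 105 CPM. For both chains the populations overlapped, although each *Slc2a1* gRNA replicate was above the control of its number for *Itgb2*. Their log2 fold changes for the 5 gRNAs were -0.01 for *Itgal* (interval -0.28 to 0.26, edgeR adjusted p = 0.956) and -0.02 for *Itgb2* (interval -0.29 to 0.24, edgeR adjusted p = 0.923). For the *Slc2a1* gRNA it was 0.06 for both (intervals -0.21 to 0.33 and -0.21 to 0.32, edgeR adjusted p = 0.837 and 0.833), and it turned to -0.04 for both with total count normalization. The TPM of *Itgal* was 1.45 ± 0.165 times that of *Itgb2* in control, 1.48 ± 0.15 in *Slc2a1* gRNA- and 1.51 ± 0.104 in *Slc2a1/3/5/6/8* gRNA-transduced cells (SD, n = 3 each), a ratio that moved by less than its spread.

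Among the 9 receptor genes *Icam1*, the LFA-1 ligand, was the 1 whose 2 gRNA-transduced populations stood furthest apart. It had 87.9, 110 and 105 CPM in control, 54.2, 73.8 and 92.2 in *Slc2a1* gRNA- and 112, 123 and 93.7 in *Slc2a1/3/5/6/8* gRNA-transduced replicates. The 2 gRNA-transduced populations did not overlap, and each overlapped the controls. Between them the log2 fold change, 5 gRNAs minus *Slc2a1* gRNA, was 0.60 (SE 0.16, interval 0.26 to 0.94, edgeR adjusted p = 0.0717), and 0 receptor genes were called in that comparison, where edgeR called 2.31% of genes. By unadjusted p under 0.05, *Icam1* was the only 1 of the 9, against 19.1% of all tested genes. DESeq2 called *Icam1* at 0.60 (DESeq2 adjusted p = 0.00684), and so did edgeR without *Slc2a1* gRNA replicate 3 (0.83, edgeR adjusted p = 0.0288) or without *Slc2a1/3/5/6/8* gRNA replicate 3 (0.82, edgeR adjusted p = 0.0194). Over all 17 alternatives the value ran from 0.43 to 0.83, and 4 of them called it while the other 13 did not.

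Against control, the *Icam1* value for the *Slc2a1* gRNA was -0.47 on the log2 scale (SE 0.16, interval -0.81 to -0.13, edgeR adjusted p = 0.102), and each *Slc2a1* gRNA replicate was below the control of its number. DESeq2 called it (-0.47, DESeq2 adjusted p = 0.0353), as did edgeR with only the 2 groups compared (-0.48, edgeR adjusted p = 0.0055). EdgeR called it too without *Slc2a1* gRNA replicate 3 (-0.71, edgeR adjusted p = 0.021), whereas the value was -0.31 without its replicate 1 (edgeR adjusted p = 0.377) and -0.41 without its replicate 2 (edgeR adjusted p = 0.368). Over all 17 alternatives it ran from -0.71 to -0.31, with adjusted p-values from 0.0055 to 0.377, and 6 of them called it. The value for the 5 gRNAs was 0.13 (interval -0.21 to 0.47, edgeR adjusted p = 0.606). In GENCODE M21, 11.7% of the exonic bases of *Icam1* overlap *Gm47079* on the opposite strand, and the assignment of reads there was not tested.

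*Cd44*, the hyaluronan receptor, had 456, 504 and 467 CPM in control, 541, 445 and 521 in *Slc2a1* gRNA- and 415, 484 and 414 in *Slc2a1/3/5/6/8* gRNA-transduced replicates. The populations overlapped. The log2 fold change was 0.08 with the *Slc2a1* gRNA (interval -0.19 to 0.35, edgeR adjusted p = 0.76) and -0.12 with the 5 gRNAs (interval -0.39 to 0.15, edgeR adjusted p = 0.542), and between the gRNA-transduced populations it was -0.20 (interval -0.47 to 0.07, edgeR adjusted p = 0.407). *Cd44* is spliced into many forms, with 9 transcripts of 1305 to 5614 bases in GENCODE M21, and its deposited length lay between 3582 and 3810 bases in all samples.

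*Selplg*, the scaffold of the selectin ligand, had 265, 276 and 293 CPM in control, 213, 225 and 265 in *Slc2a1* gRNA- and 208, 224 and 188 in *Slc2a1/3/5/6/8* gRNA-transduced replicates. Each sample with the 5 gRNAs was below each control, and the highest *Slc2a1* gRNA sample met the lowest control without overlap. The log2 fold change was -0.43 with the 5 gRNAs (SE 0.12, interval -0.69 to -0.17, edgeR adjusted p = 0.031) and -0.25 with the *Slc2a1* gRNA (interval -0.51 to 0.01, edgeR adjusted p = 0.247). Between the gRNA-transduced populations it was -0.18 (interval -0.44 to 0.08, edgeR adjusted p = 0.447). By TPM, the 5 gRNA samples had 97.7, 141 and 123 and the controls 152, 152 and 203, again with no overlap. The *Slc2a1* gRNA samples had 118, 112 and 154 TPM and overlapped the controls on that scale. The call was lost without control replicate 1, 2 or 3 (-0.43, -0.44 and -0.40, edgeR adjusted p = 0.147, 0.105 and 0.154). It was also lost without *Slc2a1/3/5/6/8* gRNA replicate 3 (-0.29, edgeR adjusted p = 0.176) and with limma on log2(TPM + 1) (-0.48, limma adjusted p = 0.151).

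In all, the CPM of the populations did not overlap for 3 receptor genes in each comparison. They were *Cxcr4*, *Itgb7* and *Selplg* against control in either population, and *Cxcr4*, *Itgb7* and *Icam1* between the gRNA-transduced populations. Over all tested genes this was so for 26.2% with the *Slc2a1* gRNA, 34.2% with the 5 gRNAs and 20.9% between the gRNA-transduced populations, so 3 of 9 was not far from the share of genes at large. The comparisons with control share their control samples, so the like directions of *Cxcr4*, *Itgb7* and *Selplg* in both are not independent of each other.

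The genes around these receptors were grouped by role. Counts of called genes in these lists stand beside 15.9% of all tested genes called with the 5 gRNAs and 4.64% with the *Slc2a1* gRNA. List medians stand beside 0.007 and -0.001 over all tested genes, in the same order. No list was tested as a set, and the counts are descriptions. Of 28 other chemoattractant receptors in the tables, 12 had at most 3 counts in every sample and 4 had a control TPM of at least 1. *Ackr3*, the other CXCL12 receptor, had at most 1 count and *S1pr1*, the receptor for egress signals, had 0 in all samples. The median log2 fold change of the 10 tested was 0.14 with the 5 gRNAs and 0.06 with the *Slc2a1* gRNA. The most abundant of the list, the cannabinoid receptor *Cnr2*, had a control TPM of 6, beside 71.3 for *Cxcr4*.

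Of 12 other integrin subunits tested, 2 fell with the 5 gRNAs and 1 with the *Slc2a1* gRNA. *Itga2b*, the platelet integrin alpha chain, had a TPM of 18.4, 18.6 and 15.7 in control, 7.68, 11.2 and 8.88 with the *Slc2a1* gRNA and 9.14, 10.2 and 10.5 with the 5 gRNAs. All gRNA-transduced samples were below all controls. Its log2 fold change was -0.89 with the 5 gRNAs (SE 0.20, edgeR adjusted p = 0.012) and -0.52 with the *Slc2a1* gRNA (edgeR adjusted p = 0.153). *Itga10*, a collagen receptor chain, had the same log2 fold change of -0.89 (SE 0.20, edgeR adjusted p = 0.0125, named outside the rule). *Itgb5* was at 36.5, 38.5 and 43.2 TPM in control, 22.6, 23.8 and 31.7 with the *Slc2a1* gRNA (log2 fold change -0.42, SE 0.11, edgeR adjusted p = 0.0476) and 24.6, 35.7 and 34.4 with the 5 gRNAs (-0.26, edgeR adjusted p = 0.118). The medians of the 12 were -0.29 with the *Slc2a1* gRNA and -0.03 with the 5 gRNAs.

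Among 25 other adhesion molecules tested, 1 rose and 2 fell with the 5 gRNAs, and 1 fell with the *Slc2a1* gRNA. *Epcam*, a homophilic adhesion molecule best known from epithelia, had a TPM of 322, 272 and 266 in control, 162, 125 and 150 in *Slc2a1* gRNA- and 89.2, 123 and 107 in *Slc2a1/3/5/6/8* gRNA-transduced replicates. It fell by 0.82 (SE 0.11, edgeR adjusted p = 0.0062) and 1.39 on the log2 scale (SE 0.12, edgeR adjusted p = 3.85e-05), without overlap between the populations. *Pecam1* fell by 1.14 with the 5 gRNAs (edgeR adjusted p = 0.00319, named outside the rule). *Spn*, the sialomucin CD43, rose by 0.50 (SE 0.13, edgeR adjusted p = 0.026), and the call was lost with total count normalization (0.45, edgeR adjusted p = 0.0592). The medians were -0.09 and -0.03. Syndecan-1, *Sdc1*, which defines plasma cells, ranged from 50.4 to 109 TPM and was not called in either comparison with control.

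Few ligands were expressed in these cells, as 8 of 25 had a control TPM of at least 1 and 13 were tested. *Cxcl12*, the ligand of CXCR4, had 0 counts in all samples, and *Vcam1*, the ligand of VLA-4, had at most 3. Of the 13, 2 rose and 1 fell with the *Slc2a1* gRNA, and 1 rose and 2 fell with the 5 gRNAs. *Spp1* (osteopontin, bound by integrins and CD44) fell from 11.9, 9.97 and 10.5 TPM in control to 4.42, 2.76 and 5.11 and to 2.58, 3.01 and 3.25, with log2 fold changes of -1.28 (SE 0.19, edgeR adjusted p = 0.00698) and -1.82 (SE 0.19, edgeR adjusted p = 0.000194). *Mif*, a cytokine that also binds CXCR4, rose by 0.81 with the *Slc2a1* gRNA (SE 0.15, edgeR adjusted p = 0.0146) and had a value of 0.38 with the 5 gRNAs (edgeR adjusted p = 0.0943). Its receptor *Cd74*, at 1050, 931 and 1210 TPM in control, was at 751, 659 and 827 with the *Slc2a1* gRNA (log2 fold change -0.37, edgeR adjusted p = 0.119) and at 585, 786 and 599 with the 5 gRNAs (-0.64, SE 0.13, edgeR adjusted p = 0.00734), below every control in both. *Ccl3* was called higher in both comparisons, with 0 counts in every control and at most 25 in any sample, so no fold is given. The medians were 0.12 and -0.26.

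**Figure D5:**
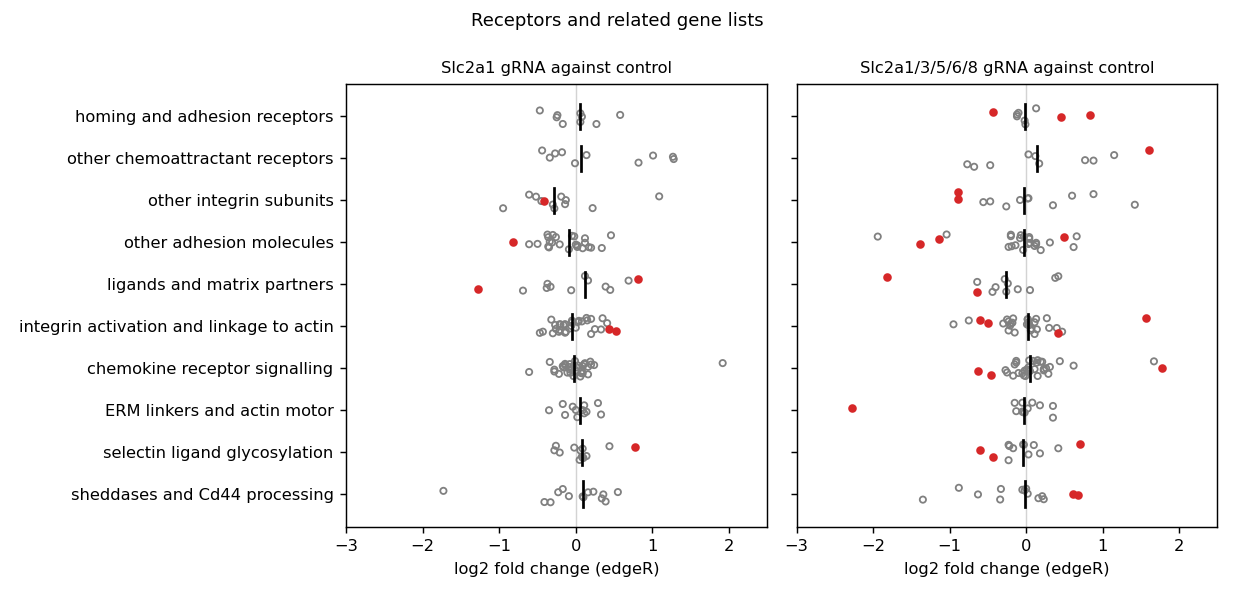
Log2 fold changes from edgeR of the tested genes of 10 lists against control, for the *Slc2a1* gRNA (left) and the 5 gRNAs (right). Each point is a gene, red where the adjusted p was under 0.05, and black lines are list medians, all between -0.29 and 0.14. *Ccl3*, with 0 counts in every control, is left out of the points and kept in the median.

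Inside the cell, 32 genes of integrin activation and linkage to actin were tested. With the 5 gRNAs 2 rose and 2 fell, and with the *Slc2a1* gRNA 2 rose. *Parvg*, an adaptor between the integrin-linked kinase complex and actin, had a TPM of 6.14, 10.5 and 10.8 in control, 11.9, 8.39 and 12.8 in *Slc2a1* gRNA- and 20, 26.8 and 27.6 in *Slc2a1/3/5/6/8* gRNA-transduced replicates. By TPM the *Slc2a1* gRNA samples overlapped the controls, and by CPM they did not (27.1, 25.6 and 29.5 against 16.1, 22 and 18.9). *Parvg* rose by 1.57 with the 5 gRNAs (SE 0.12, edgeR adjusted p = 2.33e-05) and by 0.53 with the *Slc2a1* gRNA (SE 0.12, edgeR adjusted p = 0.0324), and the difference between the gRNA-transduced populations was itself called (1.04, SE 0.12, edgeR adjusted p = 0.0013). *Skap2*, an adaptor in integrin signalling, fell by 0.61 with the 5 gRNAs (SE 0.11, edgeR adjusted p = 0.00481). *Rap1gap*, which switches off the GTPase Rap1, fell by 0.50 (SE 0.12, edgeR adjusted p = 0.016), and *Rap1b* rose by 0.42 (edgeR adjusted p = 0.019, named outside the rule). *Zyx*, a focal adhesion protein, rose by 0.43 with the *Slc2a1* gRNA (SE 0.10, edgeR adjusted p = 0.0372), a call lost with total count normalization (0.33, edgeR adjusted p = 0.0995), as was that of *Parvg* there (0.44, edgeR adjusted p = 0.0581). Medians were -0.05 and 0.03.

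Of 34 genes of chemokine receptor signalling and desensitisation tested, 0 were called with the *Slc2a1* gRNA, while 1 rose and 2 fell with the 5 gRNAs. *Grk2*, a kinase that phosphorylates activated G protein-coupled receptors and so desensitises them, had a TPM of 116, 103 and 118 in control, 72.8, 66.3 and 87.3 in *Slc2a1* gRNA- and 55.3, 74.8 and 67.3 in *Slc2a1/3/5/6/8* gRNA-transduced replicates. Both gRNA-transduced populations were below every control. The log2 fold change was -0.63 with the 5 gRNAs (SE 0.11, edgeR adjusted p = 0.00389) and -0.34 with the *Slc2a1* gRNA (SE 0.11, edgeR adjusted p = 0.0973). *Gnb2*, a G protein beta subunit, fell by 0.46 with the 5 gRNAs (SE 0.10, edgeR adjusted p = 0.0116). *Dock8* rose by 1.77 from a control TPM of 0.267 (edgeR adjusted p = 0.00167, named outside the rule). The medians of the 34 were -0.02 and 0.05.

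All 12 genes listed for linkers between receptors and the actin cortex, their regulators and an actin motor were tested. Of these, 1 fell with the 5 gRNAs. This was *Arhgdib*, an inhibitor of small GTPases of the cytoskeleton in blood cells, at 43.3, 21.8 and 22.4 TPM in control, 39.2, 20.4 and 27.9 in *Slc2a1* gRNA- and 4.5, 6.09 and 5.08 in *Slc2a1/3/5/6/8* gRNA-transduced replicates. Its log2 fold change was -2.28 (SE 0.18, edgeR adjusted p = 1.93e-05). The linkers proper, *Ezr*, *Rdx* and *Msn*, were not called. The median was -0.03 with the 5 gRNAs and 0.05 with the *Slc2a1* gRNA, where 0 of the 12 were called.

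PSGL-1 needs sulphation and particular O-glycans to bind selectins, and 13 of 19 genes listed for these steps were tested. Among the others, *Fut4* and *Gcnt1* had 0 counts in all samples and *Fut7* at most 4, all enzymes that build the sugar bound by selectins. Of the 13, 1 rose and 2 fell with the 5 gRNAs. *Tpst1*, a tyrosine sulphotransferase, was at 131, 172 and 155 CPM in control and 111, 120 and 107 with the 5 gRNAs (log2 fold change -0.43, SE 0.11, edgeR adjusted p = 0.0217). *Chst1*, a carbohydrate sulphotransferase, was at 339, 393 and 408 CPM in control and 245, 305 and 204 with the 5 gRNAs (log2 fold change -0.60, SE 0.14, edgeR adjusted p = 0.0159). The *Chst1* value was -0.39 without *Slc2a1/3/5/6/8* gRNA replicate 3 (edgeR adjusted p = 0.0815). *C1galt1c1*, the chaperone of the core 1 O-glycan enzyme, rose by 0.70 (SE 0.15, edgeR adjusted p = 0.00927). With the *Slc2a1* gRNA only *St3gal3*, a sialyltransferase, was called, at 0.78 (edgeR adjusted p = 0.0327, named outside the rule). The medians were 0.08 with the *Slc2a1* gRNA and -0.04 with the 5 gRNAs. Of 14 tested genes for shedding and processing of CD44, 2 rose with the 5 gRNAs, namely *Psen2*, a gamma-secretase subunit (0.61, SE 0.15, edgeR adjusted p = 0.0174), and *Srsf1*, a splicing factor (0.68, SE 0.19, edgeR adjusted p = 0.0269), and 0 were called with the *Slc2a1* gRNA. *Srsf1* was at 334 CPM in *Slc2a1/3/5/6/8* gRNA replicate 3 against 213 and 225 in replicates 1 and 2, and the value was 0.35 without replicate 3 (edgeR adjusted p = 0.126). Their medians were 0.09 and -0.01.

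Several of these calls were lost when 1 sample was left out. With the 5 gRNAs, those of *Itga2b*, *Rap1gap*, *Gnb2*, *Chst1*, *Tpst1*, *Psen2*, *Srsf1* and *Spn* were lost without control replicate 1, among others, at edgeR adjusted p = 0.0861, 0.129, 0.0616, 0.0757, 0.0641, 0.0842, 0.0913 and 0.107. That of *C1galt1c1* was lost without control replicate 1 (0.52, edgeR adjusted p = 0.0821) and that of *Cd74* without control replicate 3 (-0.56, edgeR adjusted p = 0.0692). Those of *Epcam*, *Spp1*, *Parvg*, *Skap2*, *Grk2* and *Arhgdib* with the 5 gRNAs were kept by edgeR without any one sample. Of these, limma on log2(TPM + 0.1) lost *Parvg*, *Skap2* and *Grk2* (limma adjusted p = 0.0576, 0.093 and 0.0925). With limma on log2(TPM + 1) the calls of *Spn*, *Cd74*, *Rap1gap*, *C1galt1c1*, *Chst1*, *Tpst1*, *Psen2* and *Srsf1* were lost (limma adjusted p = 0.273, 0.0784, 0.225, 0.0635, 0.106, 0.121, 0.138 and 0.483), and with log2(TPM + 0.1) those of *Itga2b* and *Gnb2* as well (limma adjusted p = 0.0803 and 0.0945). With the *Slc2a1* gRNA limma called 0 genes, and by edgeR *Epcam* and *Spp1* were no longer called without control replicate 2 (edgeR adjusted p = 0.0532 and 0.0584) or without *Slc2a1* gRNA replicate 2 (edgeR adjusted p = 0.0633 for both). Those of *Itgb5*, *Mif*, *Parvg* and *Zyx* with that gRNA were each lost without at least 1 control, for example without control replicate 2 (edgeR adjusted p = 0.187, 0.0872, 0.0584 and 0.197).

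The genes whose pattern was most like that of a changed receptor were found by Pearson correlation of log2(TPM + 1) over the 9 samples among 8315 genes. These correlations share the libraries and their depth and are descriptions. For *Cxcr4* they were *Qsox2* (r = 0.972), *Socs6* (r = 0.962) and *Bzw2* (r = 0.961). For *Selplg* they were *Hat1* (r = 0.99), *Fut8* (r = 0.984) and *Mms19* (r = 0.984). For *Itgb7* they were *Ctnnbip1* (r = 0.906), *Ptk2* (r = 0.869) and *Ppp2r3d* (r = 0.825), on the TPM scale, on which *Itgb7* ran opposite to its deposited length. Of these, *Qsox2* and *Socs6* (0.59 each, edgeR adjusted p = 0.00682 and 0.00589), *Ctnnbip1* (0.72, edgeR adjusted p = 0.00627) and *Mms19* (-0.37, edgeR adjusted p = 0.0387) were called with the 5 gRNAs, and the other 5 were not. All were picked for likeness to called receptors over the same 9 samples, so these calls follow in part from the choice. Over all tested genes 15.9% were called.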

How the data were processed

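RNA from 9 samples (3 populations, 3 replicates each, grouped by the labels) was converted to cDNA by a SMART-seq v4 protocol and sequenced as paired 150-base reads, per the labels and the study's methods. The authors mapped reads with Salmon 1.5.1 (version from the submitters' processing notes) and deposited, per gene, estimated counts (expected counts, which need not be whole), TPM and the length and effective length. The annotation and settings of Salmon are not given in the sources used here. GENCODE M21 served for transcript lengths and exon overlap, and RefSeq for promoters.

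After rounding, a quasi-likelihood fit was made in edgeR 4.0.16 (R 4.3.3). TMM factors and filterByExpr (13834 genes kept) were used, with the replicate number as a block, all 9 samples in one fit, and a Benjamini-Hochberg adjusted p under 0.05 over all genes tested. Standard errors came from the F statistic. CPM is the rounded count scaled by library size and TMM factor. The deposited lengths were compared without a test. The study calls its RNA-seq replicates biological, and the labels do not say how the cultures were kept apart, so p-values measure the spread between these samples. The replicate number was a block because the study's legend for transcript levels names a paired test. Same-numbered samples deviated together in control and *Slc2a1* gRNA-transduced cells (r = 0.261, 0.201 and 0.376 over genes). Deviations were taken from the mean of each population, so the mean of -0.139 for other numbers follows from these values. It is no separate contrast, and the pairing was not tested further.

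On simulated data for the 5 gRNAs against control, 200 of 13529 genes were changed, in equal numbers 2-fold and 4-fold. The fit recovered 91 of the genes changed 2-fold and 99 of those changed 4-fold and called 14 others. Every simulated gene had the same dispersion, and there was no replicate effect. The called receptor genes changed by less than 2-fold, so recovery of changes of their size was not tested. Salmon divides reads between similar genes and overlapping strands, which leaves such genes uncertain. Intervals at 95% cover the spread in the fit.

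The receptors, lists and tests were chosen with earlier results of these data known. The genes named are the 9 receptors and the 5 targeted transporters. Also named per list are up to 3 called genes with the smallest adjusted p and a mean TPM of at least 5 for the 5 gRNAs, and up to 2 for the *Slc2a1* gRNA. For each called receptor the 3 genes with the most similar TPM are named. Other genes are marked as named outside the rule, or show a detection limit. Alternatives were DESeq2 1.42.0, a fit lacking the block, library totals in place of TMM, filters of 0 or 10 counts per sample, fits of each pair of groups, limma 3.58.1 on log2(TPM + 1) and log2(TPM + 0.1), and leaving out each sample in turn. The call of 1 gene in the list of other chemoattractant receptors is not reported here. Figures were drawn with matplotlib 3.10.9.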

Additional observations from a re-analysis of the deposited data

How the results depend on the processing

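For *Slc2a1* gRNA against control, 642 genes were called, and 1255 with DESeq2, 1448 unfiltered, 2268 with only the 2 groups compared, 0 with either limma fit on TPM (2423 and 2173 at an unadjusted p under 0.05), and 11 to 1291 on leaving out 1 sample. Receptor genes called there went from 0 to 1 (*Icam1*) with DESeq2, with no filter and with only the 2 groups, and lay between 0 and 1 on leaving out 1 sample. For the 5 gRNAs against control, 2204 genes were called, 336 and 88 with limma on log2(TPM + 1) and log2(TPM + 0.1), and 631 to 2559 on leaving out 1 sample. The 3 receptor calls became 0 with either limma fit and 0 to 3 on leaving out 1 sample. For the 5 gRNAs against *Slc2a1* gRNA, 319 genes were called, 776 with DESeq2, 974 with no filter, 116 with only the 2 groups, 17 and 35 with limma, and 42 to 383 on leaving out 1 sample. Receptor genes called there went from 0 to 1 (*Icam1*) with DESeq2 and with no filter, and were 0 to 1 on leaving out 1 sample. Over the 17 alternatives the log2 fold change with the 5 gRNAs ran from 0.35 to 0.53 for *Cxcr4* (adjusted p 0.00217 to 0.297), 0.37 to 0.98 for *Itgb7* (0.00856 to 0.527) and -0.50 to -0.29 for *Selplg* (0.00416 to 0.229). That of *Icam1* between the gRNA-transduced populations ran from 0.43 to 0.83 (0.000247 to 0.329).

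Without the replicate block, 534, 1885 and 129 genes were called in the 3 comparisons, and the receptor calls were the same 3 genes. In the comparisons with the 5 gRNA population same-numbered samples did not all deviate together (r of 0.204, -0.155 and 0.206 against control). There the calls of *Slc2a1* (-0.70, edgeR adjusted p = 0.101) and *Slc2a6* (-0.66, edgeR adjusted p = 0.0712) with the 5 gRNAs were lost without the block. For the *Slc2a1* gRNA those of *Itgb5* (adjusted p = 0.0569) and *Zyx* (adjusted p = 0.103) were lost.

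Directions turned only for uncalled values. With the *Slc2a1* gRNA, *Itgal*, *Itgb2* and *Cd44* went to -0.04, -0.04 and -0.01 with total count normalization, and to -0.11, -0.14 and -0.09 with either limma fit. Total count normalization moved the share of calls that were higher from 48.4 to 23.9%, from 53.3 to 41.9% and from 58.9 to 69.5% in the 3 comparisons, and the limma fits moved the median of all genes with the *Slc2a1* gRNA to -0.111 and -0.157. Between the gRNA-transduced populations, limma gave 0.04 for *Itgal* and 0.01 for *Itgb2*. On leaving out 1 sample, signs turned with the *Slc2a1* gRNA for *Itgal* (-0.10 to 0.14), *Itgb2* (-0.02 to 0.13) and *Cd44* (-0.01 to 0.22), and for the transporter gene *Slc2a1* (-0.41 to 0.04). They turned with the 5 gRNAs for *Itgal* (-0.08 to 0.07), *Itgb2* (-0.18 to 0.08) and *Icam1* (-0.05 to 0.34). Between the gRNA-transduced populations they turned for *Itgal* (-0.15 to 0.09), *Itgb2* (-0.23 to 0.02) and *Itga4* (-0.11 to 0.20). The cause was not tested. *Itgb7* had the fewest counts of the 9 receptor genes, at 82 to 166 estimated counts per sample.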
